A study of Homo sapiens with 11 samples.

Results

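A cassette exon is an internal exon that is either kept in the mRNA or skipped, and it preserves the reading frame when its length is a multiple of 3 nucleotides. The authors deposited 3 lists of cassette exons whose inclusion differed from control after knockdown in MDA-MB-231 cells, an established human breast cancer line grown from a metastatic pleural effusion. Exon length was taken from the coordinates in each event name, and the 241 of 363 listed rows with a length divisible by 3 are described here. They make up 177 distinct events of 270, lie in 169 host genes, and have no gap in inclusion values. By list they are 72 of 107 exons for siBCL11A (67.3%, exact 95% binomial interval 57.6 to 76.1), 76 of 110 for siMBNL1 (69.1%, 59.6 to 77.5) and 93 of 146 for siB/siM (63.7%, 55.3 to 71.5). These intervals cover counting error only.

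The 4 groups were non-targeting siRNA (siNS, 100 nM, 2 libraries), a siRNA pool against BCL11A (siBCL11A, 100 nM, 3 libraries), a siRNA pool against MBNL1 (siMBNL1, 100 nM, 3 libraries) and both pools combined (siB/siM, 50 nM of each, 3 libraries). RNA was taken 48 h after transfection of this single line, and ribosomal RNA was depleted before stranded sequencing. The combined group received each pool at a lower dose than the single knockdowns. Effective depth was estimated from the RPKM values of short RNAs, as the size that brought most of them to whole read counts. It ran from 20.04 M to 34.91 M reads (M, mega) over the libraries. At the best size 61.5% to 85.7% of the short RNAs of a library came to whole counts, so these depths are approximate. VIM, a mesenchymal marker of this line, ran from 899 to 1210 RPKM over the libraries. CD44 ran from 145 to 195 RPKM and CAV1 from 101 to 181 RPKM, while AXL, SPARC and FOSL1 had no value. Of the epithelial markers, the keratins KRT8, KRT18 and KRT19 were present at 159 RPKM or more. EPCAM was at only 4.83 to 9.6 RPKM, and CDH1 had no value. BCL11A itself has no value in the gene table, which lists only genes that passed the authors' own test. The table thus shows no drop of BCL11A RNA after siBCL11A or siB/siM, and its knockdown could not be checked. Levels of the genes without values are not analysed here.

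MBNL1 and its paralog MBNL2 are RNA-binding proteins that recognise clusters of a pyrimidine-GC-pyrimidine motif in pre-mRNA. Bound inside or upstream of a cassette exon they usually favour skipping, and bound downstream they usually favour inclusion, and loss of their activity in myotonic dystrophy shifts many exons to a fetal pattern. BCL11A is a zinc finger transcription factor best known as a repressor of fetal globin genes, and it is highly expressed in triple-negative breast cancers. Skipping a frame-preserving coding exon removes a block of amino acids and leaves the downstream reading frame as it was.

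The exons that the later results turn on are printed first, in the sense orientation, 5′ to 3′. They come from GENCODE release 29 transcripts (GRCh38) whose exon and flanking intron lengths equal those of the listed event, and coordinates are the authors' hg19 positions. Capitals mark MBNL motifs of 4 letters, a GC with T or C on each side (such as TGCT), searched on the sense strand of the exon with overlaps allowed; every one of the forms the T and C choices allow was counted. The first pair is the 54-nucleotide exon of MBNL1 (chr3:152164493-152164546, plus strand) and that of MBNL2 (chr13:98009050-98009103, plus strand), shown because the MBNL proteins are known to control it in their own transcripts, where it affects nuclear localisation. Both were listed for siBCL11A, both are coding in phase 0, and they are identical at 45 of 54 positions (83.3%).
MBNL1: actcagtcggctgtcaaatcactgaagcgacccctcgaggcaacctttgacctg
MBNL2: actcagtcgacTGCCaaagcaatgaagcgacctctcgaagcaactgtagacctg
The MBNL2 copy holds 1 motif and the MBNL1 copy none. Of 1203 internal coding exons of that length in GENCODE, 45.1% hold at least 1.

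The second set holds the exons of 8 of the 11 events present under the same name in all 3 lists, shown because these are the events every knockdown list shares. HNRNPF, NIN and KIAA1109 complete the 11 and are given without sequence. The positions are KIF13A chr6:17790103-17790141, SNX14 chr6:86248556-86248582, PRKAA1 chr5:40775030-40775074, ESYT2 chr7:158545472-158545534 and SENP7 chr3:101117705-101117899 on the minus strand. On the plus strand are MTA1 chr14:105915696-105915746, PPFIA1 chr11:70196029-70196145 and KTN1 chr14:56130673-56130759.
KIF13A: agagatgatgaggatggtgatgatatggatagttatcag
SNX14: aggtagcctaagtttggatgattttcg
PRKAA1: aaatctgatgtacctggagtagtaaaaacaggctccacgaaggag
ESYT2: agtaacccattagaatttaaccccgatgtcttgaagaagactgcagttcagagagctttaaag
MTA1: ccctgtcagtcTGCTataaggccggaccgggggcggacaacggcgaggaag
PPFIA1: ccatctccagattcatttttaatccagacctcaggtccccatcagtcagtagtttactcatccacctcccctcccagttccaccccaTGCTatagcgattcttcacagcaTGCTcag
KTN1: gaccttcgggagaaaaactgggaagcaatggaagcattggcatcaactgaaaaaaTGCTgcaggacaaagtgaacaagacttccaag
SENP7: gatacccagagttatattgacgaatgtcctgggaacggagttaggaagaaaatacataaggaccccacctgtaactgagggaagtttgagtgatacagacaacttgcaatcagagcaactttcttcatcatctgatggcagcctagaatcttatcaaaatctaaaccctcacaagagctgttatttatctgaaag
Of these 8 printed exons, KIF13A, SNX14, PRKAA1, ESYT2 and SENP7 hold no motif, MTA1 and KTN1 hold 1 and PPFIA1 holds 2. SENP7 is the longest of them at 195 nucleotides. Among 485 internal coding exons of that length, 91.1% hold the motif, with a mean of 3.40. No match says only that these letters are not in the exon, and the flanking introns were not read.

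The third set shows the exons of up to 27 nucleotides found in more than 1 list, apart from SNX14 above. PPFIBP1, NAV2 and NUMB follow as examples of longer shared exons that hold the motif, chosen for it after the motif counts were seen. The shared exons of SYNRG, SPAG9, NUMA1 and TBC1D23, of 36 to 45 nucleotides, hold none. The positions are DNM2 chr19:10919245-10919256 (plus strand), FNBP1 chr9:132678245-132678259 (minus), MLLT4 chr6:168314083-168314103 (plus), PICALM chr11:85689113-85689136 (minus), MARK3 chr14:103964839-103964865 (plus), PPFIBP1 chr12:27829997-27830029 (plus), NAV2 chr11:20072835-20072879 (plus) and NUMB chr14:73745989-73746132 (minus).
DNM2: ggggagatcctg
FNBP1: ctttctctcaagctg
MLLT4: gaagtagaccaggttgaccag
PICALM: aatggcatgcattttccacaatac
MARK3: aaacatgtcattcaggtttatcaaaag
PPFIBP1: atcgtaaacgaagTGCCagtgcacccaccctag
NAV2: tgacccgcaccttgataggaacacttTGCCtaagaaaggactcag
NUMB: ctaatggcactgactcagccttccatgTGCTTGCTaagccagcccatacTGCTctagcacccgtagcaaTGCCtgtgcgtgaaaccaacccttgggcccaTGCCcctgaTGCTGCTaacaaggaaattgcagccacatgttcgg
The DNM2 exon adds 4 codons, FNBP1 adds 5, MLLT4 adds 7, PICALM adds 8 and MARK3 adds 9. None of these 5 holds the motif, which 11.4% of exons of 12 nucleotides and 17.7% of exons of 27 nucleotides hold. NUMB holds 7 motifs in 144 nucleotides, against a mean of 2.31 at that length.

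Inclusion is given as a fraction between 0 and 1 with 1 value per group, so no spread between replicates and no test exist for it, and the differences below are descriptions. Each list holds only exons that differ by about 0.1 or more; the smallest differences among the frame-preserving exons were 0.102, 0.1016 and 0.1001 in the siBCL11A, siMBNL1 and siB/siM lists. After siBCL11A, 42 of the 72 exons had lower inclusion than in siNS and 30 had higher inclusion. That is 58.3% lower, beside 54.2% lower and 45.8% higher of all 107 listed exons. After siMBNL1, 52 of 76 were lower and 24 higher (68.4% lower, beside 62.7% lower and 37.3% higher of all listed exons). After siB/siM, 71 of 93 were lower and 22 higher (76.3% lower, beside 67.1% lower and 32.9% higher). The listed exons that shift the frame were lower in 16 of 35, 17 of 34 and 27 of 53 cases in the same order. The 3 lists share the siNS values, which were identical for every event found in more than 1 list.

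**Figure D1:**
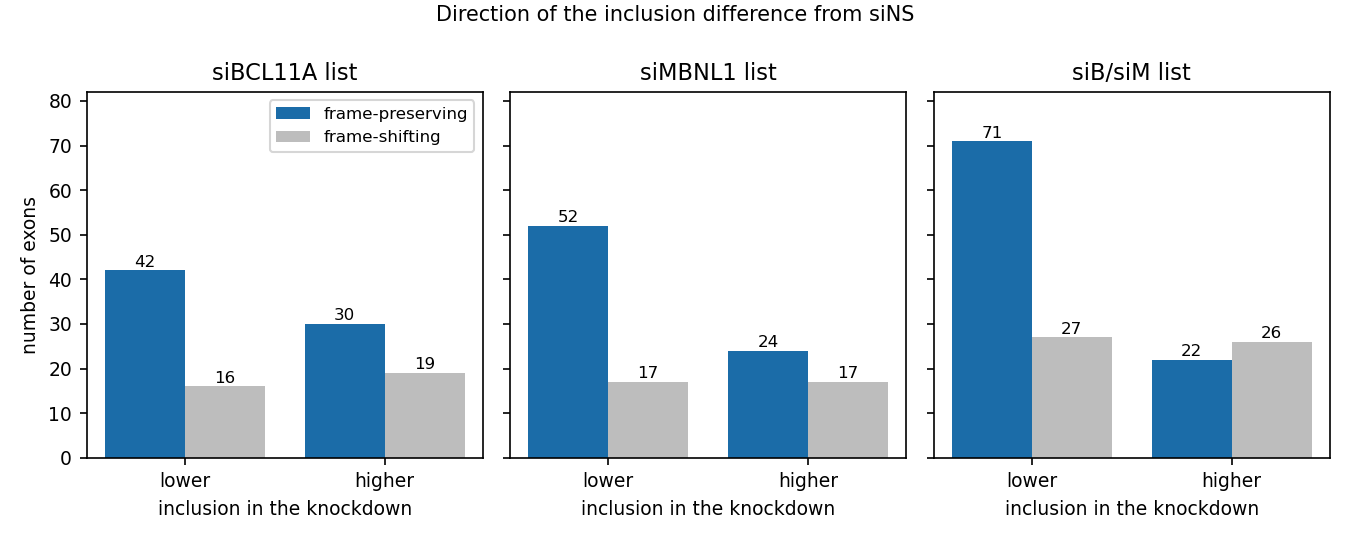
Number of listed exons with lower or higher inclusion than in siNS (y axis) for each list, frame-preserving exons in blue and frame-shifting exons in grey. Lower inclusion was the larger class of frame-preserving exons in each list, with 42, 52 and 71 exons.

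The median absolute difference was 0.189 in the siBCL11A list, 0.185 in the siMBNL1 list and 0.197 in the siB/siM list. A difference of at least 0.2 was reached by 32, 35 and 44 exons (44.4%, 46.1% and 47.3%), beside 46.7%, 46.4% and 43.2% of all listed exons. Median inclusion of the frame-preserving exons in siNS was 0.543, 0.530 and 0.531, and in the knockdown it was 0.491, 0.396 and 0.328. The exons that were lower after siBCL11A had a median siNS inclusion of 0.618, and those that were higher had 0.369. In the siMBNL1 list these medians were 0.549 and 0.462, and in the siB/siM list 0.554 and 0.510. In each list the lower exons thus started from a higher median level than the higher ones. A fall needs room below and a rise needs room above, and the siNS level is part of the difference, so this order is no separate result. The frame-shifting exons had it too, at 0.729 and 0.380, 0.659 and 0.229, and 0.6165 and 0.402 in the order of the lists.

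**Figure D2:**
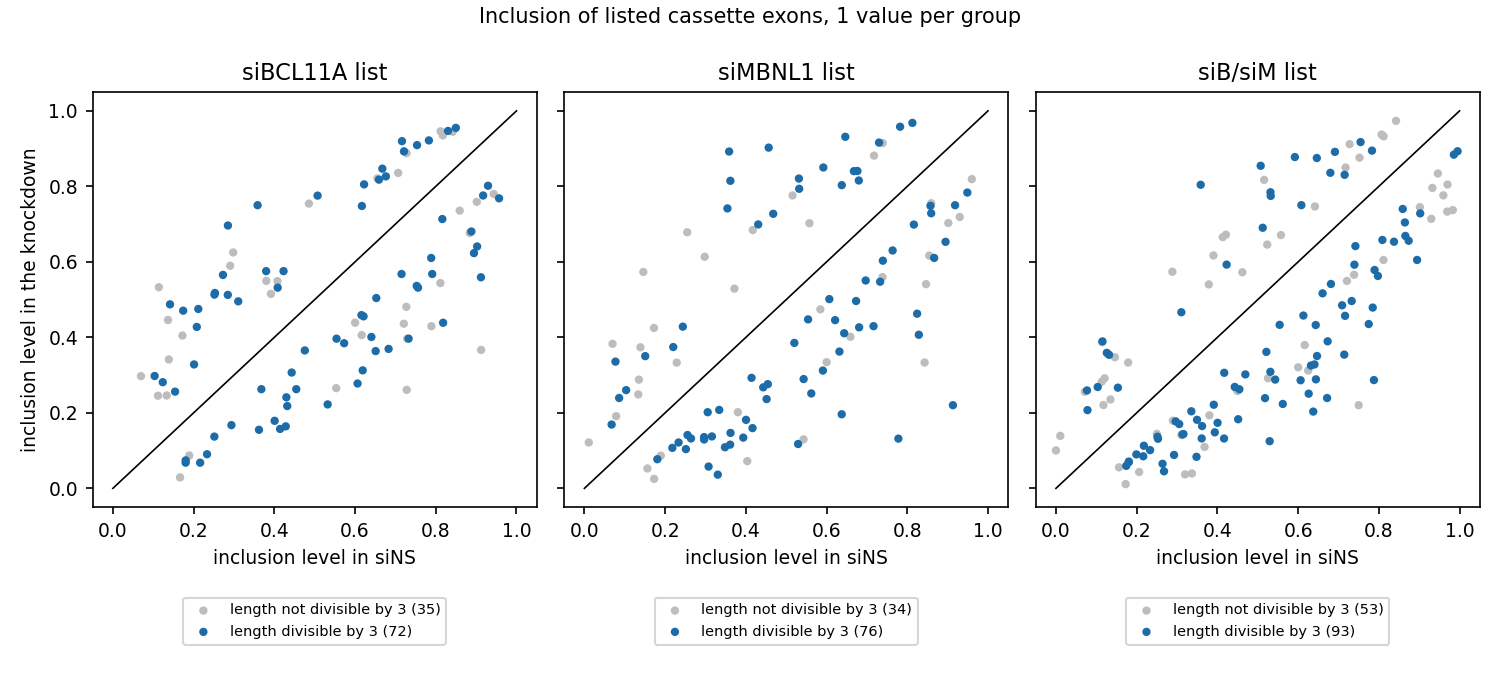
Inclusion level in siNS (x axis) against the knockdown (y axis) for each listed exon, 1 value per group, with frame-preserving exons in blue, frame-shifting exons in grey and the line of equality in black. The band along the line is empty because each list holds only exons differing by about 0.1 or more, and frame-preserving exons span siNS levels from 0.067 to 0.995.

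After siBCL11A the exon with the largest drop lies in DYNC1I2, an intermediate chain of cytoplasmic dynein, at 0.818 in siNS and 0.439 after knockdown. TRERF1, a transcriptional regulator, followed at 0.912 and 0.559. MTA1, a subunit of the NuRD chromatin complex, stood at 0.733 and 0.397. In siNS all 3 were included in most transcripts. MAGI1, a junctional scaffold, stood at 0.606 and 0.278. ADD3, the gamma adducin of the membrane skeleton, stood at 0.683 and 0.369. SEPT6, a septin, stood at 0.532 and 0.222. Both belong to the cortical cytoskeleton. EXOC1, a subunit of the exocyst that tethers secretory vesicles, stood at 0.619 and 0.313. The eighth was the MBNL1 exon printed above, at 0.651 and 0.364. Its MBNL2 counterpart stood at 0.414 and 0.157. Neither of these 54-nucleotide exons was listed for siMBNL1 or siB/siM.

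The largest gain after siBCL11A was in INF2, a formin that nucleates actin, at 0.285 in siNS and 0.696 after knockdown. SENP7, a protease that removes SUMO chains, stood at 0.359 and 0.750. PLD1, a phospholipase D, stood at 0.142 and 0.487. In INF2 and SENP7 the skipped form was the main one in siNS and the included form the main one after knockdown. MLLT4 (afadin, an adaptor at cell junctions) stood at 0.174 and 0.471. ZMYM5, a zinc finger protein, stood at 0.273 and 0.566. SDR42E1, a dehydrogenase family member, stood at 0.507 and 0.775 and is matched only in non-coding transcripts. ZDHHC7, a palmitoyltransferase, stood at 0.253 and 0.518, and HSF2, a heat shock transcription factor, at 0.212 and 0.475.

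After siMBNL1 the largest drop of any frame-preserving exon in the 3 lists was in MDM1, a centriolar microtubule-binding protein, at 0.913 in siNS and 0.220 after knockdown. This exon of 30 nucleotides holds 2 motifs. STAU2, a double-stranded RNA-binding protein, stood at 0.778 and 0.132. In both, the included form was the main one in siNS and the minor one after knockdown. NAV2, a neuron navigator, stood at 0.637 and 0.196, and MAP3K9, a mixed lineage kinase, at 0.529 and 0.117. RREB1, a zinc finger factor of Ras signalling, stood at 0.829 and 0.407. Both NAV2 and MAP3K9 recur in the siB/siM list, while RREB1 does not. DMWD stood at 0.824 and 0.463, and SPTAN1, the alpha chain of non-erythroid spectrin, at 0.562 and 0.251. RUNX2, the osteoblast transcription factor, stood at 0.330 and 0.036, the lowest knockdown level among these 8. Of the same 8 exons, those of RREB1 and RUNX2 also hold 2 motifs, and those of STAU2 and NAV2 hold 1. The exons of MAP3K9, DMWD and SPTAN1 hold none.

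The largest gains after siMBNL1 were in SENP7 (0.359 in siNS, 0.892 after knockdown) and SYTL2, a Rab27 effector in vesicle docking (0.362 and 0.815). DMKN, a secreted epidermal protein, stood at 0.457 and 0.903. CAMK2G, a calmodulin-dependent kinase subunit, stood at 0.354 and 0.742. These 4 were included in a minority of transcripts in siNS and in the majority after knockdown. NUMB, an endocytic adaptor that antagonises Notch, stood at 0.531 and 0.821. OFD1, a centriole and cilium protein, stood at 0.532 and 0.794. C16orf87 stood at 0.646 and 0.931, and LOC100506054, matched only in non-coding transcripts, at 0.431 and 0.699.

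After siB/siM the largest drop was in ARHGEF10L, whose exon of 15 nucleotides stood at 0.788 in siNS and 0.287 after knockdown. NAV2 followed at 0.637 and 0.204, and MAP3K9 at 0.529 and 0.125. PACRGL stood at 0.672 and 0.239. NAV2 and MAP3K9 were close to their levels after siMBNL1, with no replicates to set an error. MAP2K7, a kinase upstream of JNK, stood at 0.626 and 0.251. SOS1, a Ras exchange factor, stood at 0.775 and 0.435. ATG16L1, an autophagy protein, stood at 0.644 and 0.289, and KLHDC10 at 0.714 and 0.354. All 8 were included in the majority of transcripts in siNS.

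On the other side after siB/siM, SENP7 stood at 0.359 and 0.804, and SDR42E1 at 0.507 and 0.855. SYNRG, an adaptor of the AP-1 coat, stood at 0.592 and 0.878. SSBP3 stood at 0.115 and 0.389, and LOC388796 at 0.126 and 0.359. The last 2 remained below 0.5, while the other 6 of the 8 largest gains ended above 0.7. NUMB stood at 0.531 and 0.784, OFD1 at 0.532 and 0.775, and C16orf87 at 0.646 and 0.875.

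The same event was found in more than 1 list for 53 of the 177 frame-preserving events (29.9%), beside 26 of the 93 frame-shifting events (27.96%). siMBNL1 and siB/siM shared 38 events, which is 50% of the siMBNL1 list and 40.9% of the siB/siM list. siBCL11A and siB/siM shared 22 (30.6% and 23.7%), and siBCL11A and siMBNL1 shared 15 (20.8% and 19.7%). In siBCL11A alone were 46 events, in siMBNL1 alone 34 and in siB/siM alone 44. Events were matched by name here. Matched by exon start and end instead, 54 exons were found in more than 1 list. An event missing from a list may still have changed below its threshold, and because every list uses the siNS libraries, overlap also carries whatever is particular to those libraries.

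The 11 events in all 3 lists can be read across groups. SENP7 was at 0.359 in siNS and at 0.750, 0.892 and 0.804 after siBCL11A, siMBNL1 and siB/siM. NIN, a centrosomal protein whose exon of 2139 nucleotides is the longest of the 11, stood at 0.103 in siNS and at 0.298, 0.260 and 0.269. Both were higher in every knockdown. KIAA1109, a very large protein of lipid transport at membrane contacts, stood at 0.895 and then 0.623, 0.653 and 0.605, and MTA1 at 0.733 and then 0.397, 0.547 and 0.496. ESYT2, a tether between endoplasmic reticulum and plasma membrane, stood at 0.362 and then 0.155, 0.147 and 0.165. PPFIA1, a liprin of focal adhesions, stood at 0.454 and then 0.263, 0.276 and 0.262. PRKAA1, a catalytic subunit of AMP-activated kinase, stood at 0.443 and then 0.307, 0.268 and 0.269. KTN1, the kinesin-binding protein kinectin, stood at 0.554 and then 0.397, 0.448 and 0.433. SNX14, a sorting nexin, stood at 0.251 and then 0.137, 0.104 and 0.137, and HNRNPF, an RNA-binding protein, at 0.233 and then 0.090, 0.122 and 0.101. These 8 were lower in every knockdown. KIF13A, a plus-end kinesin, was the exception, at 0.716 in siNS, 0.920 after siBCL11A, 0.430 after siMBNL1 and 0.457 after siB/siM.

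**Figure D3:**
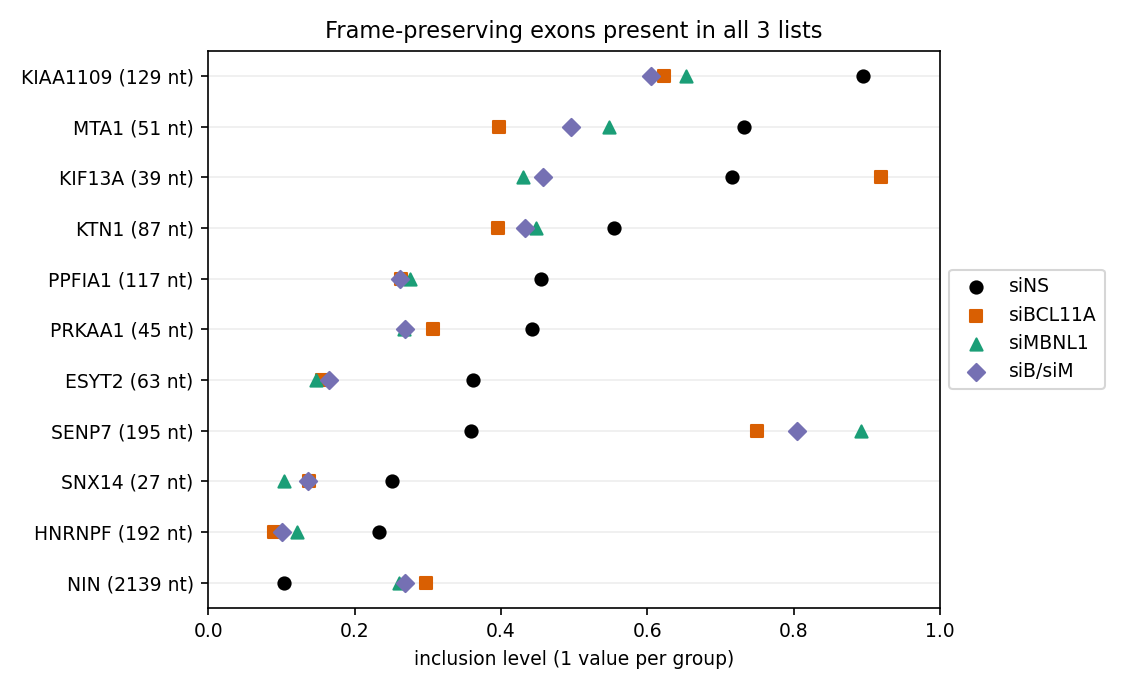
Inclusion level (x axis, 1 value per group) of the 11 frame-preserving events present under the same name in all 3 lists, ordered by their level in siNS, with a symbol for each group. KIF13A is the only one of the 11 whose level lies above siNS after siBCL11A (0.920) and below siNS after siMBNL1 and siB/siM (0.430 and 0.457).

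Events with opposite directions between lists numbered 4 of the 53. Besides KIF13A, the MLLT4 exon was at 0.174 in siNS, 0.471 after siBCL11A and 0.060 after siB/siM. ZDHHC7 was at 0.253, 0.518 and 0.131 in the same order. SEC31A, a COPII coat protein, was at 0.715, 0.568 and 0.831 for its exon of 342 nucleotides. In all 4, siB/siM lay on the other side of siNS from siBCL11A.

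Among the events shared by siMBNL1 and siB/siM only, most were lower in both. DNM2, the dynamin of endocytosis, stood at 0.394 in siNS and at 0.134 and 0.148 after siMBNL1 and siB/siM. PICALM, a clathrin assembly protein, stood at 0.673 and then 0.496 and 0.390. FNBP1, a membrane-bending formin-binding protein, stood at 0.264 and then 0.132 and 0.065. In these 3 endocytic proteins the exons have at most 24 nucleotides and are printed above. GOLGA2, the Golgi matrix protein GM130, stood at 0.451 and then 0.237 and 0.183. TBC1D23, a trans-Golgi tether, stood at 0.859 and then 0.729 and 0.740. SPAG9, a scaffold of JNK signalling and transport, stood at 0.181 and then 0.077 and 0.071.

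Cytoskeletal and junctional proteins were also among the shared lower exons. SPTAN1 stood at 0.562 in siNS and at 0.251 and 0.224. MYL6, a myosin light chain, stood at 0.305 and then 0.202 and 0.170. PPFIBP1, a liprin partner, stood at 0.543 and then 0.290 and 0.288. TJP1, the tight junction protein ZO-1, was lower too, at 0.316 and then 0.138 and 0.144, and NUMA1, a spindle pole protein, at 0.400 and then 0.181 and 0.174. Signalling proteins followed, with MAP4K4, a kinase, at 0.644 and then 0.411 and 0.433, and RGS3, a regulator of G protein signalling, at 0.348 and then 0.109 and 0.084. STK40, a kinase-like protein, stood at 0.297 and then 0.129 and 0.178, an exon of the 5′ UTR.

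Nuclear proteins were represented by TEAD1, a transcription factor of the Hippo pathway, at 0.632 in siNS and at 0.362 and 0.325, and by NFYA, a CCAAT-binding subunit, at 0.416 and then 0.160 and 0.132. PPHLN1, periphilin, stood at 0.739 and then 0.603 and 0.593. SMPD4, a sphingomyelinase, stood at 0.361 and then 0.116 and 0.132, and NDUFV3, a subunit of respiratory complex I, at 0.218 and then 0.107 and 0.113. With NAV2 and MAP3K9, given above, these complete the lower events that only siMBNL1 and siB/siM share. The higher ones were C16orf87, NUMB, OFD1, SYNRG, NAB1 and CASK. NAB1, a corepressor of EGR factors, stood at 0.077 and then 0.336 and 0.259. CASK, a membrane-associated scaffold, stood at 0.680 and then 0.816 and 0.836, and SYNRG was at 0.850 after siMBNL1.

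Apart from the exons of opposite direction, siBCL11A and siB/siM alone shared 8 events by name. FYN, a Src family kinase, stood at 0.641 in siNS and at 0.401 and 0.328. CRYZ, a quinone reductase, stood at 0.902 and then 0.641 and 0.728. FNIP1, folliculin-interacting protein, stood at 0.216 and then 0.068 and 0.085. NEDD4L, a ubiquitin ligase, was the last of the 4 lower ones, at 0.180 and then 0.068 and 0.069. RBPJ, the DNA-binding effector of Notch, was higher, at 0.423 and then 0.576 and 0.593. So was MARK3, a microtubule affinity-regulating kinase, at 0.311 and then 0.495 and 0.467, and SLMAP, a sarcolemma-associated protein, at 0.783 and then 0.922 and 0.895. SDR42E1, given above, was the other. The MARK3 exon itself was also listed for siMBNL1, at higher inclusion, as an event with another downstream exon.

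siBCL11A and siMBNL1 alone shared 4 events, 2 lower and 2 higher in both. PVR, the poliovirus receptor CD155, stood at 0.816 in siNS and at 0.713 and 0.699. VPS29, a retromer subunit, stood at 0.621 and then 0.456 and 0.446, an exon of the 5′ UTR. STX3, a syntaxin of apical membranes, was higher, at 0.668 and then 0.847 and 0.840. ATP5SL stood at 0.676 and then 0.826 and 0.841.

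Genes with exons that are known to depend on MBNL proteins formed a list of 46, of which 16 host 17 of the frame-preserving events. After siBCL11A, 7 of these events were listed, 6 lower and 1 higher, with a median difference of −0.257 beside −0.120 over all 72. The lower ones were in MBNL1, MBNL2, ADD3, EXOC1, FN1 (fibronectin, 0.294 and 0.167) and a second KIF13A exon of 105 nucleotides (0.430 and 0.241). After siMBNL1, 10 were listed, 9 lower and 1 higher, with a median of −0.243 beside −0.134 over all 76. The higher one was MYO18A, a non-muscle myosin (0.244 and 0.428). After siB/siM all 10 listed events were lower, with a median of −0.250 beside −0.160 over all 93. PPP1R12A, the myosin phosphatase targeting subunit, stood there at 0.661 and 0.517, and the others are given above. The list was drawn up from general knowledge with earlier results of these data known, and it is no independent evidence of direction.

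The functional groups below are short lists of genes, not full catalogues, and leave out some genes of the same function named above, so a count describes its list alone. Over all frame-preserving exons 58.3%, 68.4% and 76.3% were lower after siBCL11A, siMBNL1 and siB/siM, and each count is to be read beside these shares. The list of 86 cytoskeleton, adhesion and motility genes was the largest, with 21 events in 20 genes. After siBCL11A 6 of 9 were lower and 3 higher, after siMBNL1 6 of 8 were lower and 2 higher, and after siB/siM 11 of 13 were lower and 2 higher. Examples in siB/siM were ARHGEF11 (0.798 and 0.563), and PARD3, a polarity protein (0.613 and 0.458). The list of 76 membrane trafficking and endocytosis genes hosted 16 events, lower in 5 of 6, 7 of 9 and 7 of 10 cases in the order siBCL11A, siMBNL1 and siB/siM. DNM1L, the dynamin of mitochondrial fission, stood at 0.888 and 0.680 after siBCL11A. The list of 77 kinase and signalling genes, which does not hold PRKAA1, MAP3K9 or STK40, hosted 13 events, lower in 2 of 3, 2 of 5 and 7 of 9 cases. GIT2, an Arf GTPase-activating protein, stood at 0.647 and 0.351 after siB/siM.

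The list of 78 chromatin and transcription genes hosted 5 events, lower in 1 of 1 case after siBCL11A (MTA1), 4 of 4 after siMBNL1 and 4 of 4 after siB/siM. It does not hold HSF2, RBPJ and NAB1, whose exons were higher, or TRERF1, RREB1 and RUNX2, whose exons were lower. SETD5 stood at 0.297 and 0.136 after siMBNL1, and FOXM1, a transcription factor of mitotic genes, at 0.865 and 0.704 after siB/siM. The list of 58 RNA processing genes hosted 5 events. After siBCL11A these were MBNL1, MBNL2 and CELF1, an antagonist of MBNL1 on several exons (0.208 and 0.428). After siB/siM they were PTBP1, the polypyrimidine tract-binding protein (0.837 and 0.653), and TIA1 (0.132 and 0.354). No gene of this list has a frame-preserving exon among those listed after siMBNL1, but the RNA-binding proteins HNRNPF and STAU2, which it does not hold, were listed there with lower inclusion. The list of 77 cell cycle, mitosis and DNA repair genes hosted 4 events, in NIN, NUMA1, KIF23 (0.335 and 0.204 after siB/siM) and RIF1 (0.809 and 0.658 after siB/siM).

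The median length of the frame-preserving exons was 84 nucleotides (quartiles 54 and 135, range 12 to 3381), against 112 nucleotides for the listed frame-shifting exons. Lengths of up to 60 nucleotides made up 57 of 177 events (32.2%), against 11 of 93 (11.8%). Events with exons of up to 27 nucleotides, often called microexons, numbered 10, and the MARK3 exon accounts for 2 of them. Besides those printed they included MARK2 (27 nucleotides, 0.314 and 0.143 after siB/siM) and GTF3C5 (21 nucleotides, 0.067 and 0.169 after siMBNL1). At the other end were 6 exons of 309 nucleotides or more, in PLEC (3381), NIN (2139), NDUFV3 (1095), KLHL5 (477), SEC31A (342) and TRERF1 (309). PLEC, the cytolinker plectin, stood at 0.408 and 0.532 after siBCL11A.

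**Figure D4:**
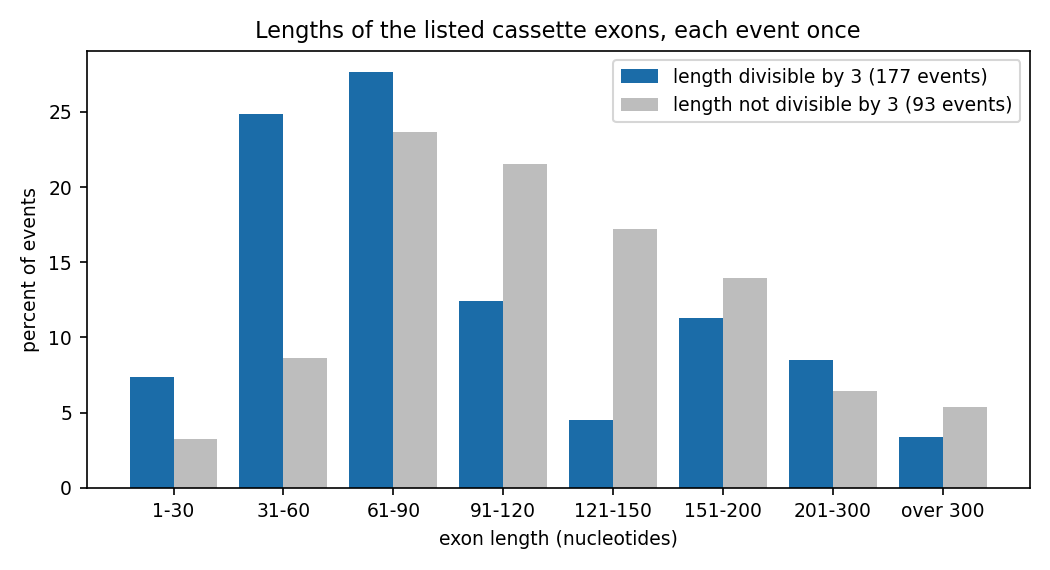
Percent of distinct events (y axis) by exon length in nucleotides (x axis, bins of unequal width), frame-preserving events in blue and frame-shifting events in grey. Bins up to 60 nucleotides together hold 32.2% of the frame-preserving events and 11.8% of the frame-shifting events.

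Of frame-preserving exons up to 60 nucleotides, 9 were lower and 9 higher after siBCL11A, 21 lower and 9 higher after siMBNL1, and 29 lower and 4 higher after siB/siM. All listed exons of that length, frame-shifting ones included, were lower and higher in 12 and 10, 24 and 10, and 34 and 5 cases in the same order. The median length of lower and higher exons was 94.5 and 85.5 nucleotides after siBCL11A, 72 and 100.5 after siMBNL1, and 78 and 112.5 after siB/siM. The lists overlap, so these are not separate sets of exons.

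The introns on each side were of similar median length, 2342 nucleotides upstream and 2285 downstream, and the upstream one was the longer in 95 of 177 events. For frame-shifting events the medians were 2358 and 1339 nucleotides. An intron under 200 nucleotides flanked 12 of the 177 frame-preserving events and 19 of the 93 frame-shifting ones. CELF1 had the longest upstream intron of the frame-preserving events, 52059 nucleotides, and MITD1 the shortest, 80 nucleotides. TEAD1 had 2371 nucleotides upstream and only 89 downstream of its exon.

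More than 1 frame-preserving event was listed in 7 genes. KIF13A had exons of 39 and 105 nucleotides, COL13A1 of 57 and 78, ATP2C1 of 171 and 186, SEC31A of 78 and 342, and MFF, a mitochondrial fission factor, of 75 and 159. The MAGI1 events of 201 and 204 nucleotides were alternative ends of nearly the same exon, listed for siB/siM (0.606 and 0.286) and siBCL11A (0.606 and 0.278). MARK3 and MFF each had an exon listed with different flanking exons, which leaves 175 distinct exons. With one downstream partner the MARK3 exon of 27 nucleotides was at 0.311 in siNS, and with the other it was at 0.730 in siNS and 0.916 after siMBNL1, so an inclusion level depends on the flanking exons chosen.

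A single place in GENCODE with the same exon and intron lengths was found for 163 of the 177 events. Of these, 134 (82.2%) were coding throughout, 11 held the start or end of the coding sequence, 8 lay in the 5′ UTR, 3 occurred only in nonsense-mediated decay transcripts and 7 only in non-coding transcripts. SEPT6, INF2, MYL6 and STX3 were among those holding a start or end of the coding sequence, and VPS29 and STK40 among those in the 5′ UTR, so a length divisible by 3 does not bear on the reading frame in the same way there. SDR42E1 and LOC388796 were matched only in non-coding transcripts. TEAD1, FYN, HNRNPF, PVR, RGS3, NAB1 and ZMYM5 were among the 14 without such a match, as was DMBT1, which fitted 2 places. Of 70 matched frame-shifting events, 31 (44.3%) were coding. The skipped form was itself annotated for 159 of the 163. Coding exons began in phase 0, 1 and 2 in 61, 30 and 43 cases.

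Among all 165 listed events matched as coding, 81.2% preserve the frame. The share is 41.2% of 169202 internal coding exons in GENCODE and 53.8% of the 17084 that have an annotated skipping junction. These reference exons come from annotation, whether or not they were expressed or measured in this line. A match was found for 163 of 177 frame-preserving but only 70 of 93 frame-shifting events, so the shares are not strictly alike. Within the frame-preserving coding exons, 37.3% of those listed were up to 60 nucleotides, against 11.6% and 22.3% in those 2 reference sets. At least 1 MBNL motif was present in 84 of 134 (62.7%), against 74.5% and 68.0% of the reference exons, which are longer. Per 100 nucleotides the median number of motifs was 1.15, against 1.25 and 1.21.

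By direction, 26 of 34 coding exons that were lower after siBCL11A held a motif (76.5%), against 8 of 21 that were higher (38.1%). After siMBNL1 the counts were 24 of 39 (61.5%) and 8 of 18 (44.4%), and after siB/siM 38 of 58 (65.5%) and 7 of 14 (50%). The median length of these lower and higher coding exons was 93 and 81 nucleotides after siBCL11A, 63 and 84 after siMBNL1, and 70.5 and 112.5 after siB/siM. These counts carry no test, and a motif in an exon is not a binding site.

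The levels of the host genes were tested separately from inclusion, since they were not used to choose the exons. Only genes that had already passed the authors' test in these same libraries have values. The p-values below therefore repeat that selection and are not independent evidence of a change. The spread between libraries was also estimated from such genes only. MBNL1 was at 10.2 and 9.77 RPKM in siNS, at 27.7, 27.5 and 27.6 RPKM after siBCL11A, at 3.17, 3.52 and 2.55 RPKM after siMBNL1 and at 3.53, 3.65 and 3.56 RPKM after siB/siM. Every siBCL11A library lay above both siNS libraries and every siMBNL1 and siB/siM library below them. In bulk RNA, fewer cells expressing a gene and less of its RNA per cell cannot be told apart. Its log2 change was 1.38 ± 0.08 (SE) after siBCL11A (limma, adjusted p = 2.51e-07), −1.44 ± 0.08 after siMBNL1 (3.79e-07) and −1.26 ± 0.08 after siB/siM (5.32e-07), on the log2(RPKM + 1) scale. The 54-nucleotide exon of MBNL1 was thus listed, at lower inclusion, in the knockdown in which MBNL1 RNA was highest. MBNL2 was at 7.73 and 7.23 RPKM in siNS and at 6.06, 6.19 and 6.23 RPKM after siBCL11A, a change of −0.24 ± 0.06 (limma, adjusted p = 0.0107). Without siNS replicate 1 that call was lost, at an adjusted p of 0.129. After siB/siM MBNL2 was at 6.49, 6.16 and 6.54 RPKM (−0.20 ± 0.06, limma, adjusted p = 0.0305), a call that was lost when any one of the 5 libraries was left out, and it has no value for siMBNL1.

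**Figure D5:**
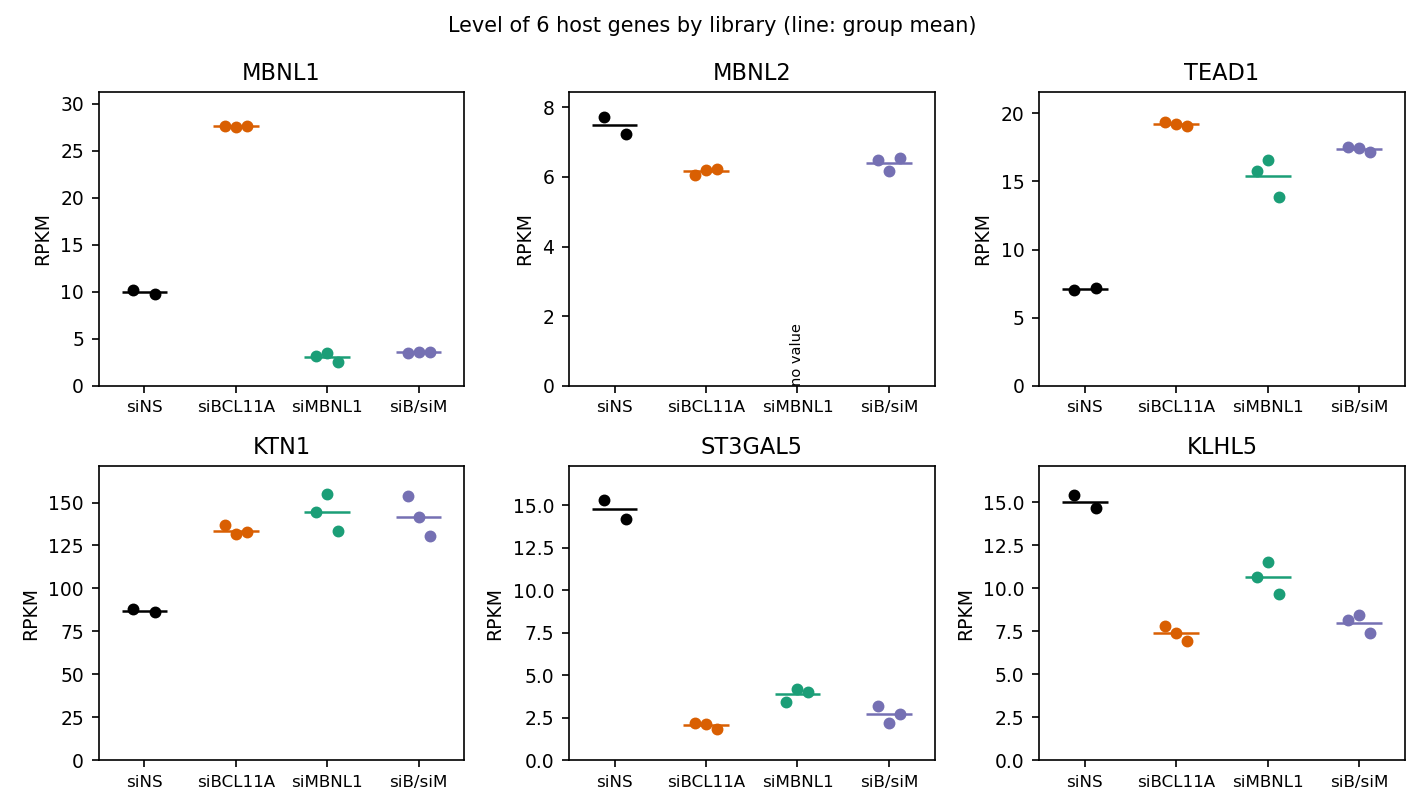
Level of 6 host genes in RPKM (y axis, from 0) in each library, with points for libraries and a line at the group mean; n = 2 for siNS and n = 3 for each knockdown. MBNL1 lies near 10 RPKM in siNS, near 27.6 after siBCL11A and below 4 after siMBNL1 and siB/siM, while MBNL2 has no value for siMBNL1.

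The gene table lists only genes that passed the authors' own test, so most of its genes are called, and a count among host genes has to be read beside that. After siBCL11A, 38 of 71 host genes had values. Of these, 20 were higher, 13 lower and 5 not called, beside 42.3% higher and 46.9% lower of all 5360 genes with values. Their median log2 change was 0.22, against −0.22 for all genes. After siMBNL1, 29 of 76 had values, 16 higher and 12 lower, beside 45.2% and 49.1% of 4690 genes (medians 0.23 and −0.25). Without siNS replicate 2 the count of lower host genes was 7 instead of 12. After siB/siM, 55 of 93 had values, 28 higher and 19 lower, beside 51.3% and 35.5% of 6700 genes (medians 0.21 and 0.24). Across the 3 knockdowns 48 of the 169 host genes had no value at all.

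Exon direction and gene direction are counted here, to be read beside the shares of all genes given above. Of the 42 exons lower after siBCL11A, 13 lay in a gene that was higher and 10 in a gene that was lower. Of the 30 higher exons, 7 and 4 did. Genes without a value held 16 of the lower and 17 of the higher exons. After siMBNL1 the counts were 10 and 10 of 52 lower exons and 6 and 2 of 24 higher exons. There 32 lower and 15 higher exons lay in genes without a value. After siB/siM the counts were 21 and 17 of 71 lower exons and 7 and 2 of 22 higher exons. There 28 lower and 10 higher exons lay in genes without a value. The rest lay in genes that were not called.

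The host genes with the largest changes did not always hold a large exon difference. After siBCL11A, KLHL5, a kelch protein, was at 15.4 and 14.7 RPKM in siNS and 7.77, 7.38 and 6.94 RPKM after knockdown (log2 change −0.94 ± 0.08, limma, adjusted p = 3.24e-06), and its exon stood at 0.252 and 0.513. TUFT1, tuftelin, was at 18.3 and 19.4 RPKM and then 35.8, 35.9 and 36.4 RPKM (0.90 ± 0.06), with its exon at 0.285 and 0.513. STX3 was at 10.2 and 9.48 RPKM and then 17.5, 17.4 and 18.4 RPKM (0.79 ± 0.06). C16orf13 was at 53.9 and 64.4 RPKM and then 33.9, 35.8 and 33.7 RPKM (−0.76 ± 0.07), with its exon at 0.721 and 0.893. For each of these 4 genes the 3 knockdown libraries all lay on one side of both siNS libraries.

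After siMBNL1, ST3GAL5, the GM3 ganglioside synthase, was at 15.3 and 14.2 RPKM in siNS and at 3.45, 4.18 and 3.99 RPKM after knockdown (−1.70 ± 0.10, limma, adjusted p = 5.81e-07), with its exon at 0.949 and 0.784. TEAD1 was at 7.05 and 7.18 RPKM and then 15.8, 16.6 and 13.8 RPKM (1.01 ± 0.07), while its exon was lower. DMBT1, a scavenger receptor whose repeated domains make read assignment uncertain, was at 13.95 and 14.02 RPKM and then 6.66, 6.59 and 6.62 RPKM (−0.98 ± 0.08), with its exon at 0.591 and 0.312. HAUS7, a subunit of the augmin complex, was at 7.52 and 7.60 RPKM and then 14.6, 14.4 and 14.1 RPKM (0.84 ± 0.05), with its exon at 0.151 and 0.350. KTN1 was at 88.0 and 86.0 RPKM and then 144.3, 155.0 and 133.7 RPKM (0.72 ± 0.08).

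After siB/siM, TEAD1 was at 17.6, 17.5 and 17.2 RPKM (1.18 ± 0.07, limma, adjusted p = 1.94e-07). LOC388796 was at 3.41 and 2.71 RPKM in siNS and then 6.03, 7.20 and 6.64 RPKM (0.91 ± 0.09). ARFIP1, an Arf-binding protein of the Golgi, was at 8.75 and 8.82 RPKM and then 17.6, 16.3 and 16.1 RPKM (0.85 ± 0.06), while its exon of 45 nucleotides stood at 0.268 and 0.045. KIF23, a kinesin of cytokinesis, was at 35.0 and 38.4 RPKM and then 65.5, 65.8 and 61.8 RPKM (0.80 ± 0.06). SMPD4 was at 10.97 and 10.54 RPKM and then 17.3, 18.9 and 19.4 RPKM (0.73 ± 0.07). In all 5 the knockdown libraries lay above both siNS libraries, while the exon was lower in TEAD1, ARFIP1, KIF23 and SMPD4 and higher in LOC388796.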

How the data were processed

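Total RNA of 11 libraries was sequenced by the authors. Per the submitters' processing notes the genome build was hg19. The aligner, the exon program and the way libraries were combined for inclusion were not given in the sources used here. Inclusion levels were deposited by the authors as a fraction per group, with the difference siNS minus knockdown as another column; signs here are knockdown minus siNS. Per the file headers, the deposited gene table holds RPKM per library, a log2 fold change with a log2 mean level, and p-values before and after adjustment. It lists only genes passing the authors' test, with 5360, 4690 and 6700 genes for siBCL11A, siMBNL1 and siB/siM. Groups follow the sample titles. Whether replicates are separate cultures is not stated in the labels; if not, p-values measure only spread between libraries.

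Exon length is the third coordinate of the event name minus the second. Exons were matched to GENCODE release 29 by gene, exon length and both intron lengths, and only a match to a single place was kept. Host genes were fitted with limma 3.58.1 in R 4.3.3 on log2(RPKM + 1), all 4 groups together, for genes with a mean of at least 1 RPKM in 1 group. The fit was tested on simulated data. The prior had 4.83 degrees of freedom and an SD of 0.0814 on the log2 scale. Benjamini-Hochberg adjustment used 23227 genes, the number behind the authors' adjusted p-values, and the threshold was 0.05. The plan allowed for counts, and the RPKM unit set the linear model. Reads per exon are not given, so the depth of each inclusion level is unknown.

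The exons and gene lists were chosen with earlier results of these data known. Exons named are the 8 largest rises and 8 largest falls per list, every exon in more than 1 list and those in genes known to hold MBNL-dependent exons. Host genes named are the 5 called ones with the largest absolute log2 change per comparison, MBNL1 and MBNL2; BCL11A has no value. Other exons named as examples of a group or of a length were chosen after their values were seen. Alternatives covered the pseudocount, low-value filter, centring, block, adjustment, left-out replicates, size of the change and the definition of length.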

Additional observations from a re-analysis of the deposited data

How the results depend on the processing

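Of the values that answer a comparison, 81 recomputed under an alternative kept their direction and stayed close to the value given, and 10 moved. Restricting to differences of at least 0.2 left 20 lower and 12 higher exons for siBCL11A, 24 and 11 for siMBNL1, and 34 and 10 for siB/siM, because fewer exons enter. Counting both ends of the exon in its length gave frame-preserving shares of 24.3%, 16.4% and 13.7%; the lengths used here are those that match annotated exons. Leaving out 1 replicate at a time, higher host genes ranged from 17 to 18 after siBCL11A, 11 to 16 after siMBNL1 and 20 to 24 after siB/siM, and lower ones from 9 to 13, 7 to 12 and 14 to 19. The 7 came without siNS replicate 2, and its cause was not tested. The replicate numbers pair nothing that the labels state, only 2 numbers are shared with siNS, and deviations of same-numbered libraries correlated across 3149 genes between −0.142 and 0.0702. With the replicate block MBNL2 after siB/siM stood at −0.21 (limma, adjusted p = 0.0626), and no other named call or count changed beyond 1.5 times. Under left-out replicates its adjusted p ranged from 0.0515 to 0.269. For named host genes, 221 recomputed values kept their call, 7 lost it, all of MBNL2, and none reversed. Inclusion has 1 value per group, so what depth or replicate spread would allow cannot be stated.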
